A study of Mus musculus with 31 samples.

Results

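The genes of 5 major proteins of central nervous system myelin, Mbp, Cnp, Mag, Mog and Mobp, were followed through mRNA, ribosome footprints and translational efficiency in mouse cortex. They were chosen by name from the proteins' known place in myelin, with earlier results of these data known. They make up 5 of the 20436 gene symbols in each count table. All 5 passed the filter on low counts in both assays. The study set wild-type mice (WT) beside mice deficient in Fmr1 (FXS, the mouse model of fragile X syndrome), in Rps6kb1, which encodes S6K1, a kinase of ribosomal protein S6 (group S6K1), and in both genes (DKO), all aged 29 to 34 postnatal days. No drug or other agent was given to any group, as far as the labels say, and the strain, the sex and the targeted alleles are not given in the sources used here. Footprints, the mRNA pieces that ribosomes protect from nuclease, came from 4 WT, 5 FXS, 3 S6K1 and 3 DKO libraries in batches 1 to 4. Polyadenylated mRNA came from 16 libraries in batches 5 to 8, with 1 library per genotype in each batch. Whether libraries of a group came from separate animals is not stated, so p-values measure the spread between these libraries, which may in part be technical.

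Myelin is the sheath of compacted membrane that oligodendrocytes wrap around axons, and in the mouse cortex it is still being laid down in the weeks around weaning. Mbp (myelin basic protein) and Mobp (myelin-associated oligodendrocyte basic protein) are small basic proteins of compact myelin. Mbp holds the cytoplasmic faces of the membrane together, and its mRNA is carried into the processes and translated there, as Mobp mRNA is too. Cnp (2',3'-cyclic nucleotide 3'-phosphodiesterase) lies in the uncompacted cytoplasmic channels. Mag (myelin-associated glycoprotein) is an adhesion protein of the membrane next to the axon, and Mog (myelin oligodendrocyte glycoprotein) lies on the outermost layer. Mag and Mog are transmembrane proteins made at the endoplasmic reticulum. The Fmr1 product FMRP is an RNA-binding protein that restrains translation, and S6K1 is a kinase downstream of mTORC1 that acts on the translation machinery.

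In the mouse assembly GRCm38.p6, the NCBI release of the mm10 build that the submitters' notes name, RefSeq places Cnp on chromosome 11 from 100574909 to 100591875, Mag on chromosome 7 from 30899175 to 30914922, Mog on chromosome 17 from 37010740 to 37023398 and Mobp on chromosome 9 from 120149742 to 120181488. The start regions of these 4 genes are printed here because the genes are known to share the oligodendrocyte factors MYRF and SOX10, whose own footprints are given further on. Each run holds the 250 bases before and 50 bases after a RefSeq transcript start, read along the gene's strand. Capitals mark matches, on either strand, to the MYRF motif (CTGGCAC or CTGGTAC) or to the SOX core (ACAAAG or ACAATG). None of these motifs overlaps another in the windows shown.
Cnp, chr11:100574689-100574988, plus strand: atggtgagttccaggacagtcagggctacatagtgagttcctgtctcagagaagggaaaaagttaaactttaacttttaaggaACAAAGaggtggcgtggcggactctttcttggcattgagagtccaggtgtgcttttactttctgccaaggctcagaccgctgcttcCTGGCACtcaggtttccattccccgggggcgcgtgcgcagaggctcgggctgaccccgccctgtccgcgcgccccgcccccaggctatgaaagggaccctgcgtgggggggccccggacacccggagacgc
Mag, chr7:30914814-30915113, minus strand: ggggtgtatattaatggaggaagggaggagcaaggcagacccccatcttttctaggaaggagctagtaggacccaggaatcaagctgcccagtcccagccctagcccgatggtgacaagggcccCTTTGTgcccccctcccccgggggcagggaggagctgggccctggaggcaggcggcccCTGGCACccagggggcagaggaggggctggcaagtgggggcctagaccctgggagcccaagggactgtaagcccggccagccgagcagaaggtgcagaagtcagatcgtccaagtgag
Mog, chr17:37023349-37023648, minus strand: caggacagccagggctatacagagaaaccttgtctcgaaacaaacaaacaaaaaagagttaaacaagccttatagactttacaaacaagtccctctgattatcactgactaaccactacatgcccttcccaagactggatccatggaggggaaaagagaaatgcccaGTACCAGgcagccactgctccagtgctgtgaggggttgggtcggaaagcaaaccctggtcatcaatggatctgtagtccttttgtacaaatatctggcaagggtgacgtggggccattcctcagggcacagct
Mobp, chr9:120149492-120149791, plus strand: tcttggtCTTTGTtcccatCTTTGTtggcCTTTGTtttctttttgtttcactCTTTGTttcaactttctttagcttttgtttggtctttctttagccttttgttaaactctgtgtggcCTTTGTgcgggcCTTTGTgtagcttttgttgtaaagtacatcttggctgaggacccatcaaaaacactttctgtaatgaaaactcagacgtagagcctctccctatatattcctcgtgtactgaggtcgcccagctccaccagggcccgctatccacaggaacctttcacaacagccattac

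The Cnp window held CTGGCAC from position -81 and ACAAAG from -167, counted from the start site of the window. For Cnp that start site lies inside the gene range given above and not at its first base. The Mag window held CTGGCAC from -68 and ACAAAG on the other strand from -126, and the Mog window held CTGGTAC on the other strand from -83. The Mobp window held no MYRF motif and 6 copies of ACAAAG, all on the other strand. RefSeq lists 3 starts for Mag, and the window shown is that of the first. Counted from the second start, CTGGCAC lay at -9 and ACAAAG on the other strand at -67. The window of the third start held none of the motifs. Over 27025 windows of the same length, 7.07% held either form of the MYRF motif and 28.8% either form of the SOX core. A match is a description of the letters and not a measured binding site.

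Total counts, in units of 1000000, ran from 12.1 to 17.3 per mRNA library and from 16.6 to 34.9 per footprint library. The members were well counted, from 862 to 13715 counts per mRNA library and from 348 to 29693 per footprint library. Levels are given as CPM, the counts per 1000000 counts of the library, scaled by TMM factors. Fmr1 mRNA was 13.04 to 22.1 CPM in FXS and 10.6 to 21.6 in DKO against 55.6 to 77.6 in WT, and Rps6kb1 footprints were 7.62 to 12.8 CPM in S6K1 and 11.3 to 11.96 in DKO against 26.1 to 31.7 in WT. The libraries thus matched their genotype labels by these genes, while Rps6kb1 mRNA in S6K1 (28.2 to 43.7 CPM) overlapped WT (39.5 to 55.4). All 10 cortical neuron markers and all 10 mature oligodendrocyte markers looked for, members left out, passed the filter in both assays, and the 3 Schwann cell markers summed to 1.58 to 4.06 CPM in mRNA, most of it Prx (1.52 to 4.06), and to at most 0.317 CPM in footprints, where none passed the filter. The 4 mRNA libraries of batch 5 stood apart from the other 12, low in several of the members and in glial markers, and their values are given beside the results.

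Relative to its own mRNA, Cnp carried the most footprints of the 5 genes and Mobp the fewest. In WT the ratio of footprint CPM to mRNA CPM, from group means of log2 values, was 2.61 for Cnp, 1.41 for Mag, 0.571 for Mbp, 0.570 for Mog and 0.405 for Mobp. This ratio compares a gene with itself, so that transcript length largely drops out. Among the 13654 genes tested in both assays, these ratios lay at percentiles 95.0 for Cnp, 78.8 for Mag, 34.6 for Mbp, 34.5 for Mog and 21.5 for Mobp. On the log2 scale they were 1.38 ± 0.0816 (SE over libraries) for Cnp, 0.50 ± 0.349 for Mag, -0.81 ± 0.257 for Mbp, -0.81 ± 0.263 for Mog and -1.30 ± 0.133 for Mobp. Mbp and Mog did not differ beyond their errors, and the gap from either to Mobp was under 2 times its larger error, whereas Cnp stood above Mag and Mag above Mbp by more than the errors. No member's group means put its ratio higher in DKO or FXS than in WT, while Mog was at 0.571 in S6K1 against 0.570 in WT. Cnp went from 2.61 in WT to 1.97 in FXS, 1.77 in S6K1 and 1.59 in DKO. Mag went from 1.41 to 0.901, 1.05 and 0.667. These means include mRNA batch 5, where WT Mag was at 103 CPM against 205 to 218 in the other batches. WT Mbp mRNA was at 458 CPM there against 791 to 963. The WT mean of Mag footprints includes a library at 401 CPM, where the others were at 202 to 220. Ratios and percentiles without these libraries were not taken.

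**Figure D1:**
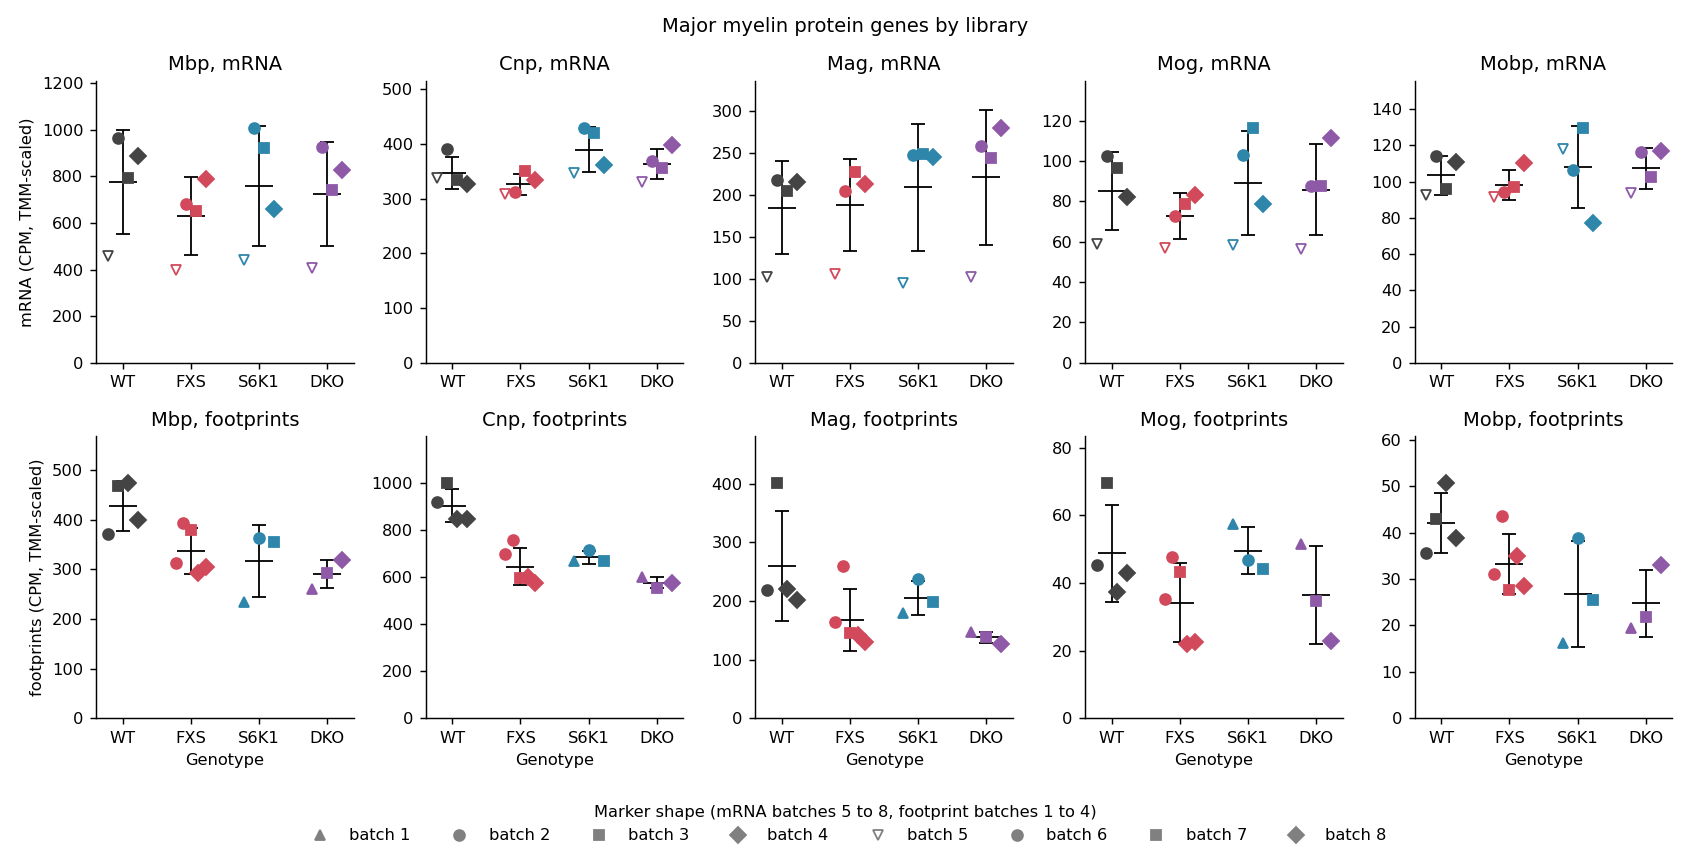
CPM of each member in every library, mRNA above and footprints below, with genotype on the x axis, marker shape for batch and bars for mean ± SD over libraries. Cnp footprints lie between 848 and 1000 in the 4 WT libraries and at or below 758 in the other 11, while the open triangles of mRNA batch 5 lie lowest for Mbp, Mag and Mog in every genotype.

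Cnp footprints were lower in every mutant library than in any WT library. In WT they were 922, 1000, 849 and 848 CPM, in batches 2, 3, 4 and 4. In FXS they were 698, 758, 597, 600 and 574 CPM, in batches 2, 2, 3, 4 and 4. In DKO they were 603, 554 and 574 CPM, in batches 1, 3 and 4, so that neither mutant group reached the lowest WT library. In bulk tissue, fewer cells of a type and less RNA per cell cannot be told apart. Cnp footprints fell by 30.4% in FXS, a log2 fold change of -0.52 ± 0.0668 (SE, edgeR quasi-likelihood test with Benjamini-Hochberg adjusted p 0.00785). They fell by 35.8% in DKO, at -0.64 ± 0.0828 (adjusted p 0.00456). Cnp was the 1 member of 5 called in each of these comparisons, where 0.165% of all 13953 genes tested were called in FXS and 0.366% in DKO. Cnp was also the 1 member whose FXS libraries all lay below all WT libraries, as held for 1.08% of all genes. The FXS call was lost without FXS footprint replicate 5 (0.0731) and without the batch term (0.264), and the DKO call without DKO footprint replicate 2 (0.0845) or 3 (0.0595). With only the 2 genotypes of the comparison in the model, both calls were lost as well, at 0.0506 in FXS and 0.0674 in DKO.

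Mag footprints, those of the adhesion protein beside the axon, had the largest fold changes of the 5 with all libraries in the model, and 1 WT library stood well above the rest. They were 218, 401, 220 and 202 CPM in WT, 164, 260, 145, 142 and 130 in FXS and 147, 139 and 127 in DKO, with batches in the order given for Cnp. All 3 DKO libraries lay below all WT libraries, while FXS replicate 2 at 260 CPM stood above 3 of the 4 WT libraries. The log2 fold change was -0.69 ± 0.204 (SE, edgeR adjusted p 0.282) in FXS and -0.90 ± 0.249 (0.141) in DKO, and neither passed. Without WT replicate 2 of batch 3, the library at 401 CPM, the FXS value was -0.43 (0.395) and the DKO value -0.55 (0.398). Mag then no longer ranked first, as Mog was at -0.54 (0.192) in FXS and -0.68 (0.199) in DKO. Without WT replicate 1, at 218 CPM, the DKO value was -1.05 and passed (0.0486).

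Mog footprints, of the outermost myelin layer, came closest to a call after Cnp. They were 45.4, 69.5, 37.2 and 42.8 CPM in WT, 35.2, 47.8, 43.1, 22.01 and 22.6 in FXS and 51.5, 34.6 and 22.7 in DKO. The groups overlapped. Within batch 4 both FXS libraries (22.01 and 22.6 CPM) and the DKO library (22.7) lay below both WT libraries (37.2 and 42.8). In batch 3 the FXS (43.1) and DKO (34.6) libraries lay below the WT library (69.5). In batch 2 FXS replicate 2 (47.8) lay above the WT library (45.4) and FXS replicate 1 (35.2) below it. How many of all genes separate in this way within a batch was not counted. The log2 fold change from the model with batch was -0.61 ± 0.127 (SE, edgeR adjusted p 0.0998) in FXS and -0.76 ± 0.157 (0.0549) in DKO. Mog passed in both comparisons with DESeq2, at 0.00125 and 0.000938. It also passed with edgeR in both comparisons without WT replicate 1 (0.00519 in FXS and 0.00487 in DKO) or FXS replicate 2 (0.0332 and 0.0225), and in DKO without FXS replicate 3 (0.0486).

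The basic proteins of compact myelin had smaller fold changes in footprints. Mbp lies on chromosome 18 of GRCm38.p6, from 82475091 to 82585637, so that the 5 genes are on 5 chromosomes. Mbp footprints were at 371, 468, 473 and 399 CPM in WT, 313, 393, 380, 293 and 304 in FXS and 261, 292 and 318 in DKO. Every DKO library lay below every WT library for Mbp, whereas 2 FXS libraries at 393 and 380 CPM lay above the lowest WT library. The log2 fold change of Mbp was -0.36 ± 0.105 (SE, edgeR adjusted p 0.249) in FXS and -0.44 ± 0.130 (0.141) in DKO. Mobp was at 35.7, 43.0, 50.6 and 38.9 CPM in WT, 31.1, 43.5, 27.6, 34.9 and 28.5 in FXS and 19.4, 21.9 and 32.9 in DKO. Its DKO libraries too lay below all WT libraries, and its log2 fold change was -0.39 ± 0.155 (0.417) in FXS and -0.49 ± 0.192 (0.233) in DKO.

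Over the 5 genes, all 5 log2 fold changes of footprints were below 0 in FXS, with a median of -0.52, and in DKO, with a median of -0.64, where 50.3% and 52% of all genes were below 0. At an unadjusted p under 0.05 all 5 passed in both comparisons, against 9.87% of all genes in FXS and 17.1% in DKO. The members were chosen with earlier results of these data known, so these counts describe the set and do not test it. In DKO, Mbp, Cnp, Mag and Mobp had no overlap with WT, as held for 7.22% of all genes in the lower direction. The FXS and DKO comparisons share the 4 WT libraries, so the 2 sets of values are not independent of each other. Within batches that held both genotypes, all 10 DKO values of the 5 genes lay below WT, by -1.53 to -0.43 on the log2 scale. Of the 15 FXS values 14 did, from -1.47 to 0.046, the exception being Mobp. These are 5 genes in 2 batches for DKO and in 3 for FXS, so the values are not separate replicates. No share over all genes was taken. In batch 3 all of them rest on 1 WT library, replicate 2. With that library left out of the model, the 5 fold changes ran from -0.54 to -0.26 in FXS and from -0.68 to -0.33 in DKO. Cnp and Mbp made up most of the members' summed footprints, with WT means of 905 and 428 CPM in a sum of 1684. Summed over the 5 members, footprints were 1531 to 1981 CPM in WT, 1060 to 1502 in FXS, 1156 to 1403 in S6K1 and 1042 to 1082 in DKO. No mutant library reached the lowest WT library in these sums, as held for Cnp alone, while Mog overlapped WT in each mutant. How often other sets of genes do so was not tested. Beside the members, the summed footprints of the 10 other mature oligodendrocyte markers were 1451 to 2497 CPM in WT, 878 to 1694 in FXS, 1586 to 2041 in S6K1 and 977 to 1914 in DKO. In the model with batch all 10 of these markers were below 0 in FXS, S6K1 and DKO, with medians of -0.59, -0.49 and -0.79 and 3, 0 and 4 called lower with edgeR, so that each median lay at or below that of the members. Over all genes 54.2% were below 0 in S6K1. All 10 markers also stand in the pathway lists described further on. The part of oligodendrocyte content in the members' values was not tested. The summed astrocyte markers (1504 to 2072 CPM in WT, 1385 to 2040 in FXS, 1410 to 2008 in DKO) and the summed cortical neuron markers (9416 to 10480, 8902 to 10267 and 8940 to 10493) overlapped between these groups, as did the oligodendrocyte marker sums. In the model with batch, medians in FXS, S6K1 and DKO were 0.03, 0.03 and -0.06 for astrocyte markers and -0.05, -0.13 and -0.07 for neuron markers. The 5 endothelium markers, which summed to 12.1 CPM at most, had -0.02, -0.62 and -0.35. No gene of these lists was called with edgeR in these comparisons.

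Loss of S6K1 alone gave footprint values of similar direction, none of which passed with edgeR. In S6K1, Cnp footprints were 668, 716 and 670 CPM, in batches 1, 2 and 3, all below WT, at a log2 fold change of -0.47 ± 0.0845 (SE, adjusted p 0.151). Mbp was at 234, 363 and 355 CPM, also below every WT library, at -0.36 ± 0.132 (0.442). Absence of overlap with WT held for these 2 members and for 6.41% of all genes. Mag was at 180, 238 and 198 CPM and Mobp at 16.2, 38.8 and 25.5, and both overlapped WT. The log2 fold change was -0.50 ± 0.252 (0.625) for Mag and -0.45 ± 0.196 (0.544) for Mobp. Without WT replicate 2 these were -0.13 and -0.27, and Cnp was the furthest from WT, at -0.38. Mog, at 57.5, 46.9 and 44.2 CPM, had a mean of 49.5 ± 7.05 (SD, n = 3), close to the WT mean of 48.7 ± 14.2 (n = 4). Its log2 fold change in the model with batch was -0.46 ± 0.159 (0.410), and without the batch term it was 0.02. With edgeR 0 of 5 members were called in S6K1 and 0.00717% of all genes, and 4 of 5 had an unadjusted p under 0.05, against 8.74% of all genes. DESeq2 called 1 member, and its share of all genes called is not given here. Within batches 2 and 3, 7 of 10 values lay below WT, from -1.02 to 0.12. In batch 2 Mag, Mog and Mobp lay above WT, and the batch 3 values all rest on WT replicate 2.

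The DKO libraries did not separate from either single mutant by the test. Against FXS all 5 log2 fold changes of footprints were below 0, from -0.21 to -0.08, where 51.8% of all genes were below 0. Against S6K1 all 5 were below 0 too, from -0.40 to -0.04, beside 50.4% of all genes. With edgeR 0 of 5 were called in either comparison, as were 0.0143% and 0.00717% of all genes. No member had an unadjusted p under 0.05 in either, against 6.19% and 8.67% of all genes, and DESeq2 and limma voom called none. Cnp and Mag were lower in all 3 DKO libraries than in all 3 S6K1 libraries, as held for 4.86% of all genes. The interaction of the genotypes, that is the effect of losing both genes beyond the sum of the single effects, was above 0 for all 5 members in footprints, from 0.28 to 0.35, and none was called (all adjusted p 1.00, 0% of all genes called). Over all genes, 48.2% of the footprint interactions were below 0. With 1 library left out in turn, the interaction of Mag ran from 0.0015 (without WT replicate 2) to 0.60 and those of the other 4 from 0.14 to 0.61. For Cnp the values side by side were -0.52 in FXS, -0.47 in S6K1 and -0.64 in DKO. Its interaction of 0.35 ± 0.110 was the 1 member value with an unadjusted p under 0.05, against 3.07% of all genes.

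**Figure D2:**
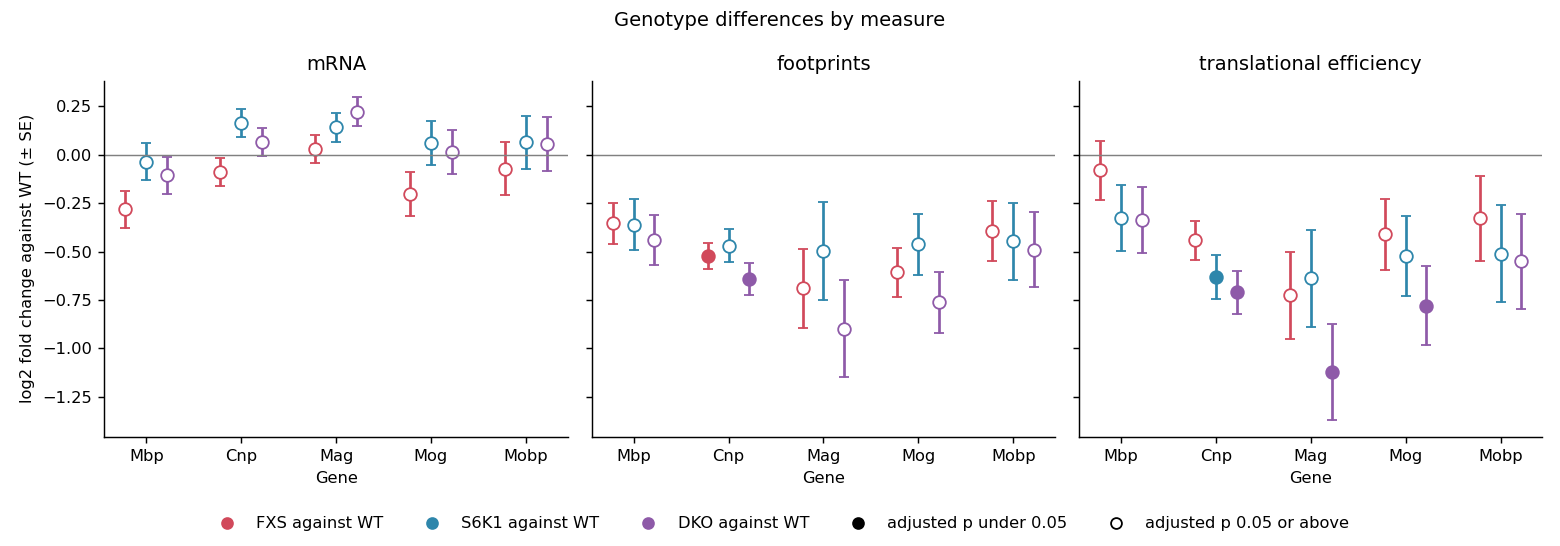
Log2 fold change against WT with its SE (y axis) for each member (x axis) in mRNA, footprints and translational efficiency; color gives the mutant and filled circles an adjusted p under 0.05. All 15 footprint values and all 15 efficiency values lie below 0, while the mRNA values lie between -0.28 and 0.22 and none is filled.

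At the mRNA level no member was called in any genotype comparison with edgeR. Cnp mRNA was 338, 390, 333 and 326 CPM in WT in batches 5 to 8, 308, 311, 350 and 333 in FXS, 347, 429, 419 and 361 in S6K1 and 331, 370, 356 and 397 in DKO. The 4 groups overlapped, and the log2 fold change of Cnp against WT was -0.09 ± 0.0727 (SE) in FXS, 0.16 ± 0.0726 in S6K1 and 0.07 ± 0.0726 in DKO, with adjusted p of 0.644, 0.657 and 0.631. Mag mRNA was 103, 218, 205 and 216 CPM in WT, 106, 205, 228 and 214 in FXS, 95.4, 248, 249 and 246 in S6K1 and 102, 259, 244 and 280 in DKO. Its DKO libraries of batches 6 to 8 lay above the WT libraries of those batches, opposite in sign to its footprints. The log2 fold change of Mag mRNA in DKO was 0.22 ± 0.0739 (0.0783), the value closest to a call, and it passed with DESeq2 (0.0427), without batch 5 (0.0400) and without S6K1 mRNA replicate 1 (0.0478).

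Mbp was the member with the lowest mRNA value in FXS. Its mRNA was 458, 963, 791 and 888 CPM in WT, 397, 681, 653 and 787 in FXS, 443, 1007, 921 and 659 in S6K1 and 407, 923, 740 and 827 in DKO. FXS lay below WT in each of the 4 batches, by -0.50 to -0.17 on the log2 scale, and the pooled log2 fold change was -0.28 ± 0.0961 (SE, edgeR adjusted p 0.235). Mbp passed when only the 8 libraries of WT and FXS were in the model (0.00929) and when S6K1 mRNA replicate 4 was left out (0.0443). Mog mRNA ran from 57.0 to 83.2 CPM in FXS against 59.0 to 102 in WT, and Mobp mRNA from 91.4 to 110 against 92.3 to 114. The members called with edgeR were 0 of 5 in FXS, S6K1 and DKO against WT, where 0.155%, 0.0211% and 5.23% of all 14215 genes were called, and 1 of 5 had an unadjusted p under 0.05 in each, against 12.7%, 7.37% and 22.3% of all genes. The member medians were -0.09 in FXS, 0.06 in S6K1 and 0.05 in DKO. Against FXS, all 5 DKO values were above 0, from 0.13 to 0.22, where 48.5% of all genes were below 0. Of the 5, 2 had an unadjusted p under 0.05 (9.81% of all genes) and none was called (0.0281%). The interaction called none either (0% of all genes), and against S6K1 the 5 DKO values lay between -0.09 and 0.08 with none called (0.387%).

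Translational efficiency is the footprint difference minus the mRNA difference, tested in 1 model of all 31 libraries. In DKO it fell for Cnp, Mag and Mog. Cnp fell by 0.71 ± 0.112 on the log2 scale (SE, edgeR adjusted p 0.00327), Mag by 1.12 ± 0.249 (0.0230) and Mog by 0.78 ± 0.203 (0.0340). The values of Mobp, -0.55 ± 0.246 (0.169), and Mbp, -0.34 ± 0.170 (0.220), did not pass, though Mobp passed with only WT and DKO in the model (-0.69, 0.0434). These 3 of 5 members stand beside 4.85% of all 13654 genes called in DKO and 3% called lower. Cnp kept its call with each of the 31 libraries left out in turn. Mag lost it without WT mRNA replicate 2 (0.05004) or 3 (0.0587), DKO mRNA replicate 3 (0.0503), WT footprint replicate 2 (0.0798, at -0.77) or DKO footprint replicate 2 (0.142). Mog lost it without WT mRNA replicate 2, 3 or 4, DKO mRNA replicate 2, 3 or 4, WT footprint replicate 2 or 4, or DKO footprint replicate 2 or 3, at 0.0525 to 0.182, and without mRNA batch 5 (0.0594). Without the batch term all 3 calls were lost, at 0.0620 for Cnp, 0.148 for Mag and 0.508 for Mog, whose value was then -0.44.

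In S6K1 the efficiency of Cnp fell by 0.63 ± 0.113 (SE, edgeR adjusted p 0.0352), and Cnp was the 1 member called, beside 0.0293% of all genes. This call held with 14 of 31 libraries left out in turn. It was lost, at 0.0513 to 0.246, without WT mRNA replicate 1, 3 or 4, FXS mRNA replicate 1 or 3, S6K1 mRNA replicate 2 or 3, DKO mRNA replicate 2, WT footprint replicate 2 or 4, FXS footprint replicate 1, 4 or 5, any S6K1 footprint replicate or DKO footprint replicate 1. It was also lost without the batch term (0.628), without mRNA batch 5 (0.140) and with only WT and S6K1 in the model (0.212). In FXS no member was called with edgeR, beside 0.0952% of all genes. Cnp came closest, at -0.44 ± 0.100 (0.0849). It was the 1 member called with DESeq2 (0.00496), whose share of all genes called is not given here. The FXS values were -0.72 ± 0.225 (0.214) for Mag, or -0.46 (0.322) without WT footprint replicate 2, -0.41 ± 0.182 (0.338) for Mog, -0.33 ± 0.219 (0.535) for Mobp and -0.08 ± 0.152 (0.859) for Mbp, whose mRNA and footprint values in FXS were nearest to each other. At an unadjusted p under 0.05, Cnp, Mag and Mog passed in FXS (13.4% of all genes). DKO against FXS, DKO against S6K1 and the interaction gave 0 of 5 calls each in efficiency, with 0.0146%, 0.00732% and 0% of all genes called. At an unadjusted p under 0.05 these comparisons had 1, 0 and 1 of the 5 members, against 8.36%, 14.6% and 4.14% of all genes. That the effect on efficiency differs between the mutants was therefore not shown by the tests of the differences themselves.

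In mRNA, 3 of the 5 members differed more between batches than between genotypes. Mbp mRNA in the 4 libraries of batch 5 was 397 to 458 CPM, one of each genotype, against 653 to 1007 in batches 6 to 8. Mag was 95.4 to 106 CPM in batch 5 against 205 to 280, and Mog 56.2 to 59.0 against 72.6 to 116. In batch 5 against the mean of batches 6 to 8, Mag fell by 1.19 ± 0.0651 on the log2 scale (SE, edgeR adjusted p 8.47e-13), Mbp by 0.94 ± 0.0831 (1.26e-08) and Mog by 0.66 ± 0.0971 (2.28e-05). Cnp, at 308 to 347 CPM against 311 to 429, gave -0.14 ± 0.0597 (0.0653), and Mobp, at 91.4 to 118 against 76.9 to 130, gave -0.10 ± 0.113 (0.503). This contrast called 46.3% of all genes, 24.4% in the lower direction. A test of any difference among the 4 mRNA batches called Mbp, Mag and Mog too, beside 40.5% of all genes. The ratio of Mag to Cnp mRNA was 0.275 to 0.345 in batch 5 and 0.558 to 0.706 in the other 12 libraries, and that of Mbp to Cnp 1.23 to 1.35 against 1.83 to 2.72, without overlap in either.

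Markers of other cells moved with batch 5. The 10 other mature oligodendrocyte markers summed to 978 to 1038 CPM in batch 5 and 1106 to 1790 in batches 6 to 8. The precursor list was at 57.2 to 67.5 against 89.2 to 134, the astrocyte list at 1150 to 1323 against 1891 to 2389, the microglia list at 141 to 190 against 499 to 615 and the endothelium list at 15.8 to 29.3 against 44.7 to 110. The sum of the cortical neuron list was also lower, at 5765 to 6296 against 6533 to 8026. Its genes were mixed: 5 of 10 were below 0 in the model, all called lower, and 1 was called higher, with a median of -0.07. The striatum list went the other way, at 354 to 449 against 250.04 to 407, with overlap. Their part in the members' batch values was not tested, and batch 5 was the same for every genotype.

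**Figure D3:**
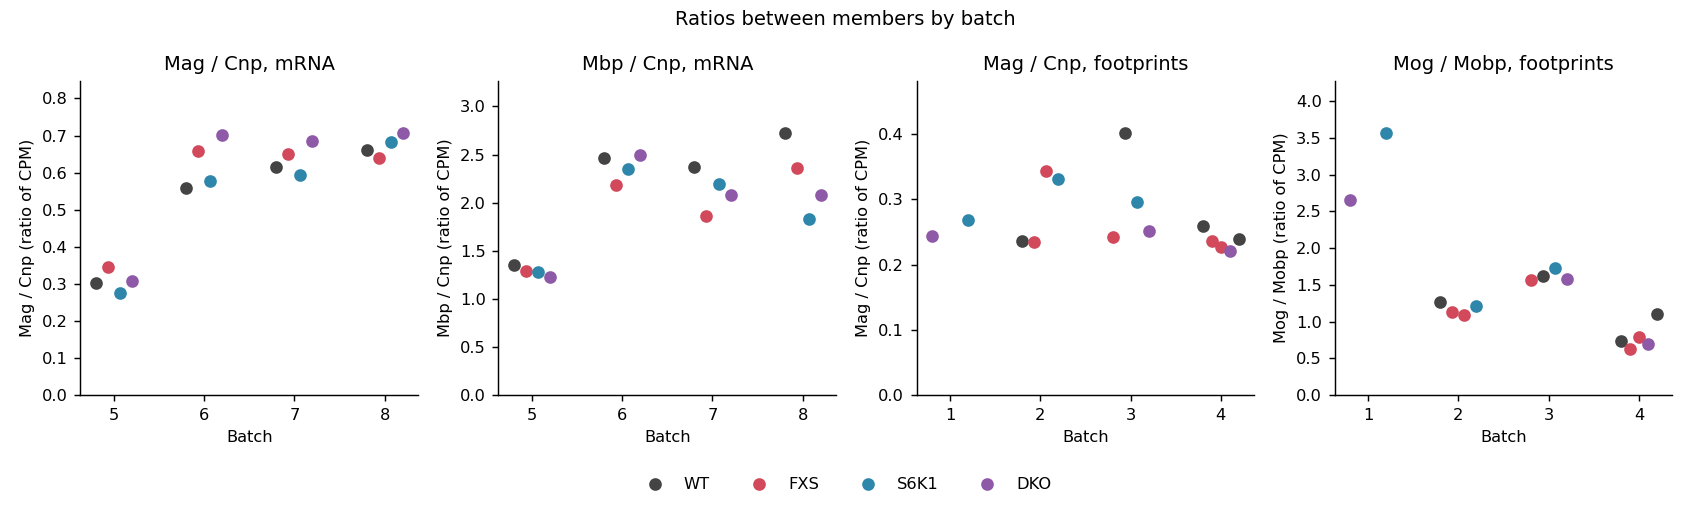
Ratio of CPM between pairs of members in each library (y axis), by batch (x axis), with color for genotype. The mRNA ratios of Mag and Mbp to Cnp are lowest in batch 5 for all 4 genotypes, and the footprint ratio of Mog to Mobp runs from 2.66 to 3.56 in batch 1 and from 0.630 to 1.10 in batch 4.

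Among footprint batches, Mog and Mobp were the members called, a share not above that of all genes. With 1 library left out in turn, 1 to 5 members were called. The test of any batch difference called Mog (edgeR adjusted p 0.000552) and Mobp (0.0224), beside 53.9% of all genes, and gave 0.0692 for Mbp, 0.0691 for Cnp and 0.196 for Mag. The values of Mog and Mobp went in opposite directions. In batch 1, which held 1 DKO and 1 S6K1 library, Mog was at 51.5 and 57.5 CPM and Mobp at 19.4 and 16.2. In batch 4 Mog was at 22.01 to 42.8 CPM and Mobp at 28.5 to 50.6. The ratio of Mog to Mobp footprints was 2.66 to 3.56 in batch 1, 1.10 to 1.27 in batch 2, 1.56 to 1.73 in batch 3 and 0.630 to 1.10 in batch 4. The ranges of batches 2 and 4 overlapped slightly, with the lowest of batch 2 at 1.098 and the highest of batch 4 at 1.102. Because batch 1 held no WT or FXS library, its level and that of these genotypes can be compared only through the model.

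Other genes of the myelin sheath and its lipids were also lower in footprints. Of 52 tested genes in 5 lists, chosen by function with earlier results of these data known, 6 fell and none rose in FXS, 10 fell and none rose in DKO, and none was called in S6K1 with edgeR, beside 0.165%, 0.366% and 0.00717% of all genes called. Of 21 other genes of compact and paranodal myelin, all 21 footprint values were below 0 in FXS, S6K1 and DKO, with medians of -0.47, -0.43 and -0.58. Over all genes 50.3%, 54.2% and 52% were below 0. Gjc3, a connexin, fell by 0.65 ± 0.113 on the log2 scale in FXS (SE, edgeR adjusted p 0.0323) and by 0.93 ± 0.140 in DKO (0.0139). Sept4, a septin of the sheath, fell by 0.47 ± 0.0671 in FXS (0.0127) and by 0.49 ± 0.0838 in DKO (0.0276). In DKO the calls also included Opalin, Gjb1 and Pllp, at -0.88, -0.96 and -0.99. Of 6 genes of myelin lipid synthesis, Ugt8a and Fa2h, which make galactosylceramide and its hydroxylated form, fell in FXS (by 0.59 and 0.76) and in DKO (by 0.60 and 0.85), and Gal3st1, the sulfatide synthase, fell by 1.06 in DKO.

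Among 8 transcription factor genes of the lineage, Myrf, which drives the myelin genes in maturing oligodendrocytes, fell in FXS footprints by 0.69 ± 0.0988 (SE, edgeR adjusted p 0.0127) and in DKO by 0.84 ± 0.124 (0.0132). Sox10 was at -0.48 (0.166) and -0.58 (0.112). None of the 9 genes of precursors and newly formed oligodendrocytes was called, and their footprint medians were -0.19 in FXS and 0.00 in DKO. Nor was any of 8 genes that bind or carry myelin mRNAs, such as Qk and Hnrnpa2b1, with medians of -0.07 and -0.01 beside -0.00 and -0.01 over all genes. In mRNA the 52 genes gave other counts. In DKO, Anln and Aspa fell by 0.76 and 0.61 while Tppp (0.30), Olig1 (0.39), Gpr17 (0.41) and Pura (0.33) rose, in FXS Kif1b rose (0.33), and none was called in S6K1. These 6 of 52 in DKO mRNA stand beside the 5.23% of all genes called. In mRNA batch 5, 30 of the 52 fell and 5 rose, where 24.4% of all genes were called lower. Efficiency fell for 17 of 52 in DKO, beside 3% of all genes called lower, and rose for none, among them Cldn11, Pllp, Myrf, Olig1 and Sox10, and in FXS it fell for 1 of 52, Myrf.

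**Figure D4:**
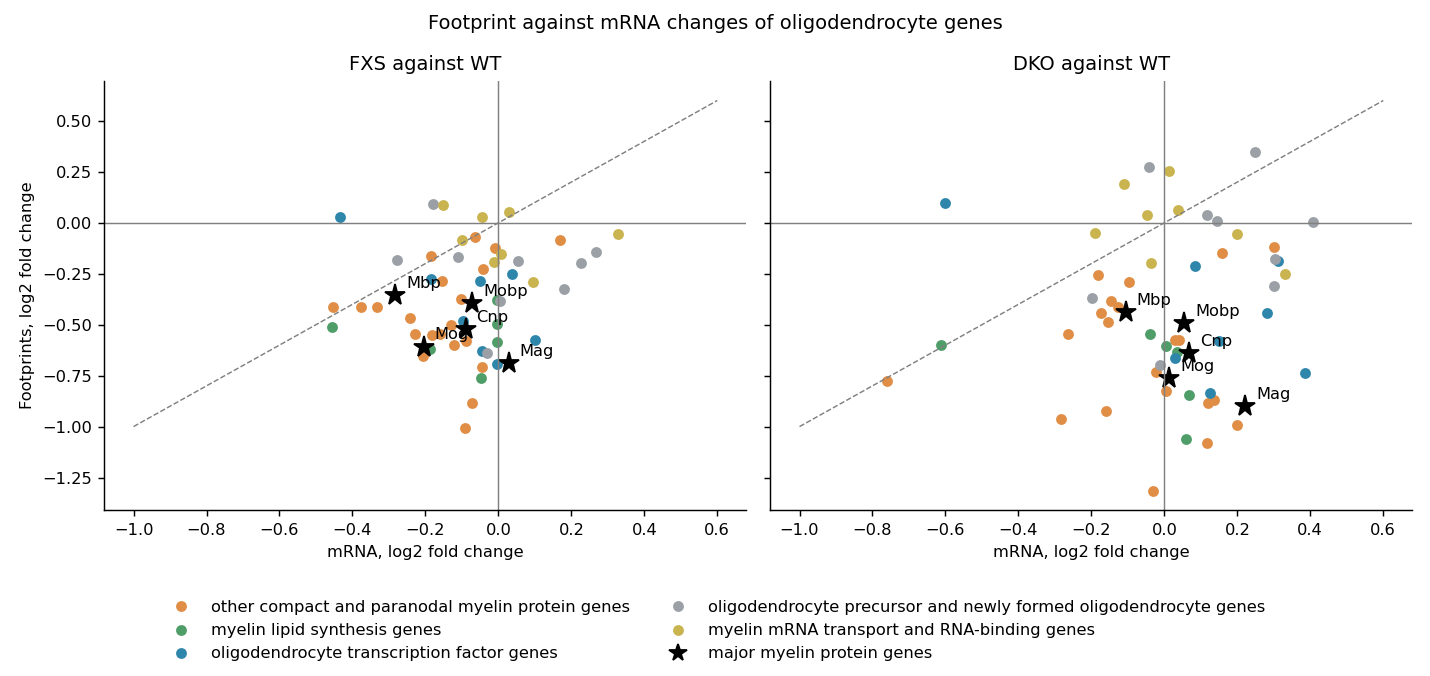
Log2 fold change of footprints (y axis) against that of mRNA (x axis) in FXS (left) and DKO (right) for the 5 members (stars) and the 52 genes of the 5 lists (circles, colored by list); the dashed line marks equal change. All 5 members lie below the dashed line in both panels, nearest to it for Mbp in FXS.

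The genes whose levels followed the members most closely were other oligodendrocyte genes in footprints and a more mixed set in mRNA. Over the 15 footprint libraries the highest Pearson r between a gene's log2 CPM and the mean of the 5 members was 0.98 for Cldn11, a tight junction protein of myelin, followed by 0.95 for Pllp, 0.94 for Gsn, 0.93 for Adamts4 and 0.93 for Unc5b. Over the 16 mRNA libraries it was 0.97 for Slc35g2, then 0.95 for Cldn11, 0.95 for Cd9, 0.95 for Tmem147 and 0.94 for Lpar1. Cldn11 was the 1 gene in both sets. These libraries share batch and genotype, so the values are a description. Between members, footprints of Cnp and Mag (r 0.88) and of Mbp and Mobp (0.85) ran together most closely, while Mog and Mobp did not (-0.08). In mRNA the closest pair was Mbp and Mog (0.92) and the least close Mag and Mobp (0.25).

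The authors' deposited table for footprints gave Cnp at -0.53 in FXS (adjusted p 2.31e-09) and -0.64 in DKO (1.44e-09). In the authors' deposited tables Mog footprints also passed, at -0.61 (0.00139) in FXS and -0.77 (0.000720) in DKO, and Mbp in DKO at -0.44 (0.0474). These tables called 1.07% of their genes in FXS footprints and 2.47% in DKO footprints, where 0.165% and 0.366% were called here. For efficiency, the authors' deposited table for DKO called Cnp at -0.70 (2.01e-05) but not Mag at -1.14 (0.236) or Mog at -0.77 (0.177), beside 0.725% of its genes called. The authors' deposited tables for mRNA called no member, with Mag in DKO at 0.22 (0.0558), beside 1.45% of genes called in FXS and 8.12% in DKO. The fold changes were close to those computed here, while the calls of Mog and Mbp footprints and of Mag and Mog efficiency fell on the other side of the threshold.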

How the data were processed

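Ribosome footprints (15 libraries) and polyadenylated mRNA (16 libraries) of mouse cortex were compared by genotype and batch, both taken from the labels of each library. The deposited tables hold raw counts per gene symbol, over coding sequence per the file names. Per the submitters' processing notes, the tools were cutadapt 2.0, Bowtie2, TopHat2 and RSEM and the build was mm10; which tool made which file, the read filters and the annotation are not given in the sources used here. Isoforms of Mbp, Mobp and the other genes are pooled under 1 symbol, so a shift between isoforms is not seen. The authors' deposited comparison tables give log2 fold changes with standard errors and p-values per gene, from a model not given in the sources used here. Their deposited score (fold change over its error) and their deposited mean signal, normalized by the authors to a scale not stated, were not used.

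Counts were tested with edgeR 4.0.16 in R 4.3.3 (quasi-likelihood F-test, robust), after filterByExpr on genotype and TMM scaling within each assay, with batch and genotype in the model and all genotypes of an assay fitted together. Translational efficiency was the footprint contrast minus the mRNA contrast in 1 model of 31 libraries, with batch nested in assay, on genes that passed in both assays and with factors and library sizes over those genes. Whether the assays used the same animals is not given in the sources used here. P-values were adjusted by Benjamini-Hochberg over all genes of a test, and a gene was called under 0.05. SEs were obtained from the fold change and the F statistic. The main test was checked on simulated data. Alternatives were RLE scaling, no filter, limma voom (limma 3.58.1), DESeq2 1.42.0, no batch term, only the genotypes compared, each library left out in turn and, for mRNA and efficiency, batch 5 left out. CPM were scaled by TMM; log2 CPM for likeness between genes used a prior count of 2.

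The members and lists were chosen with earlier results of these data known. Besides the members, genes called in the 5 lists could be named, else the 2 of a list with the smallest adjusted p in FXS or DKO footprints, and the 5 genes most like the members in each assay. For the transcription factor list, 8 of 10 names matched the tables. Promoter sequences came from RefSeq (GRCm38.p6) by symbol, and all 4 genes shown matched. The mRNA batches carry the numbers of the labels, 5 to 8. Some genes of the lists are counted but not reported by name here.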

Additional observations from a re-analysis of the deposited data

Results flagged for a closer look

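The values below were picked because 1 library lay far from the rest of its group: its gap to the nearest library exceeded Dixon's limit for the group size. Of 30 groups tested, 4 did so, all of them Mag, and chance alone gives about 1 in 20.

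In mRNA, WT replicate 1 had the lowest Mag level of its group, 102.6 CPM, with the next at 204.8. S6K1 replicate 1 was at 95.4 CPM, with the next at 246.0. Both are libraries of batch 5, and the FXS and DKO libraries of that batch were also the lowest of their groups for Mag.

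In footprints, WT replicate 2, of batch 3, had the highest Mag level of its group at 401 CPM, with the next at 220.2. FXS replicate 2, of batch 2, was at 260.1 CPM, with the next at 163.9. Without WT replicate 2 the log2 fold change of Mag footprints in DKO against WT moved from -0.90 to -0.55.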

How the results depend on the processing

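Of the single-gene values, 1835 of 1940 with 1 library left out and 570 of 600 under the other alternatives kept their direction and their side of the threshold. The share of all genes called under each alternative is not given here, so the counts below have no background to be read against. The numbers of members called that moved were these. DESeq2 called 2 in FXS footprints, 1 in S6K1 footprints, 2 in DKO footprints, 1 in FXS efficiency and 1 in DKO mRNA. The fit without the batch term, which is the replicate block given by the labels, called 0 in FXS footprints, 0 in S6K1 efficiency and 0 in DKO efficiency, where the block gave 1, 1 and 3, and it changed no other count. With only the 2 genotypes compared, 1 was called in FXS mRNA, 4 in DKO efficiency (Mobp joined) and 0 in FXS footprints, DKO footprints and S6K1 efficiency. Without mRNA batch 5, 1 was called in DKO mRNA, 2 in DKO efficiency and 0 in S6K1 efficiency. Leaving out 1 library gave 0 to 1 in FXS mRNA, 0 to 1 in DKO mRNA, 3 to 5 for mRNA batch 5, 0 to 2 in FXS footprints, 0 to 3 in DKO footprints, 1 to 5 among footprint batches, 0 to 1 in S6K1 efficiency and 1 to 3 in DKO efficiency.

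Signs that turned belonged to values that were not called. Without the batch term these were Mog footprints in S6K1 (0.024) and in DKO against FXS (0.089) and the efficiency interaction of Mbp (-0.035), Mag (-0.012) and Mog (-0.11). For Mobp, mRNA in S6K1 was -0.044 without batch 5, mRNA in DKO against S6K1 was 0.0025 with RLE, 0.018 with voom, 0.0016 with DESeq2, 0.012 with only these genotypes and 0.10 without batch 5, and footprints in DKO against S6K1 were 0.012 with only these genotypes. With 1 library left out, mRNA values ran from -0.029 to 0.083 for Mag in FXS; from -0.12 to 0.076 for Mbp, -0.044 to 0.15 for Mog and -0.053 to 0.22 for Mobp in S6K1; from -0.13 to 0.079 for Mog and -0.0066 to 0.10 for Mobp in DKO; from -0.18 to 0.018 for Mbp, -0.19 to 0.056 for Mog and -0.17 to 0.11 for Mobp in DKO against S6K1; and from -0.069 to 0.035 for Cnp, -0.0025 to 0.12 for Mag and -0.10 to 0.18 for Mobp in the interaction. Footprint values ran from -0.15 to 0.056 for Mbp and -0.18 to 0.077 for Mobp in DKO against FXS, and from -0.21 to 0.057 and -0.20 to 0.13 in DKO against S6K1. Efficiency values ran from -0.20 to 0.0016 for Mbp in FXS, from -0.16 to 0.12 for Mbp and -0.22 to 0.14 for Mobp in DKO against S6K1, and from -0.086 to 0.23 for Mbp and -0.060 to 0.55 for Mag in the interaction. The causes were not tested. The lowest count of any member in a library was 348, and S6K1 and DKO footprints rest on 3 libraries each in uneven batches.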
